A study of Mus musculus with 8 samples.

Results

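The genes described here encode the proteins of the cytosolic ribosome, in the livers of male mice given oxaliplatin and of control mice. They were taken as all array symbols made of Rpl or Rps and a number, together with Rplp0, Rplp1, Rplp2 and Rpsa, without pseudogenes and without the Rps6k kinases. This gave 89 of 21252 named genes, of which 86 had a signal high enough to be tested, among 13913 genes tested. The name rule also takes in Rps19bp1, a binding partner of Rps19 that is not a ribosomal protein, and several paralogues and retrogene-like copies (Rps27l, Rpl22l1, Rpl3l, Rpl36al, Rpl7l1, Rps4l, Rpl32l and Rpl37rt).

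RNA of 8 livers was measured on Agilent one-colour arrays, 1 array per mouse, and the design calls the 4 mice of a group biological replicates. In the 4 oxaliplatin mice the platinum drug was injected intraperitoneally once a week for 6 weeks, a model of hepatic sinusoidal obstruction syndrome (HSOS), in which the sinusoids, the liver's smallest vessels, are damaged. The other 4 mice were controls described as normal. The labels used here give no strain, age or dose, and name no injection for the control mice. The arrays of a group shared 1 slide, and the groups therefore cannot be told apart from their slides or scans.

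A ribosome has a small subunit, which reads the mRNA (Rps genes), and a large subunit, which joins the amino acids (Rpl genes). Nearly every cell makes these proteins in matched amounts, and their mRNAs begin with a run of pyrimidines, the TOP motif, through which mTORC1 signalling and the protein Larp1 control their translation. When ribosome assembly is disturbed, free Rpl5 and Rpl11 can bind Mdm2 and so stabilize p53.

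Levels are log2 signals relative to the 75th percentile of each array, and differences are oxaliplatin minus control, ± SE with n = 4 arrays per group. A gene is called where limma's adjusted p is under 0.05, adjusted by Benjamini-Hochberg over all 13913 genes. Between 27.2% and 40.9% of probes were well above background on an array, and no spot was saturated. All directions follow the labels. Cdkn1a, a p53 target that DNA damage is known to induce, lay between 0.54 and 3.65 on arrays labelled oxaliplatin and between 4.66 and 6.33 on arrays labelled control, and an exchange of labels was not tested. Albumin (Alb) was at 11.22 on oxaliplatin arrays and 10.66 on control arrays on average, a difference of 0.56 ± 0.08, and 5 of 11 tested hepatocyte markers were called higher and 0 lower. Of 6 tested platelet markers 0 were called higher and 3 lower, and their summed linear signal was between 12.7 and 17.7 on oxaliplatin arrays and between 36.8 and 109 on control arrays. Of 7 tested T and NK cell markers 2 were called higher and 0 lower. Of 6 tested neutrophil markers none was called, with a median difference of -1.49 and summed signals that overlapped between the groups. The called shares were 45.45% for hepatocyte, 50% for platelet and 28.6% for T and NK cell markers, where 18.6% of all genes were called. Over all genes 6.99% were called higher and 11.6% lower. The part of these cells in the values below was not tested. In whole liver, fewer cells of a type and less RNA per cell cannot be told apart.

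Several genes carry more than 1 probe, and the letters of the probes matter for what follows. The first set of excerpts is shown because these probes lie over the hexamer AATAAA, the usual signal for cleavage and polyadenylation near the end of an mRNA, here in capitals. Each excerpt is 30 bases of a 60-base probe, written 5′ to 3′ in the sense of the mRNA as the deposited files give it.
Rps27a: tgtgtatgcgttAATAAAaagaaggaactc
Rps9: ttccagctgaaaAATAAAaaagaattgata
Rpl10: aaatcgttcaatAATAAAatctcgcatcaa
Rps21: gaatttgttacaAATAAAagttttaagtac

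The next set shows whole probes of Rps9, Rpl10 and Rps21 that do not hold the hexamer. They are given because they report on the same 3 genes with the opposite sign.
Rps9: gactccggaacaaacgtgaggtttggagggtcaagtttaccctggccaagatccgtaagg
Rpl10: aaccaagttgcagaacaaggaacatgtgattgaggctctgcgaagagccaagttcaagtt
Rps21: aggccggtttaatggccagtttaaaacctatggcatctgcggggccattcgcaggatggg

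On mouse genome build mm9 the files place the Rps27a probe at chr11:29445848-29445907 on the minus strand. They place the Rps9 probe without the hexamer at chr7:3656257-3656316 and that of Rpl10 at chrX:71518098-71518157, both on the plus strand. The Rps21 probe with the hexamer lies at chr2:179993084-179993143 on the plus strand.

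As a family the ribosomal protein genes differed little between the groups. Of the 86 tested, 7 were called higher on oxaliplatin arrays (Rps27a, Rps3a1, Rps9, Rpl10, Rps12, Rplp1 and Rpl21), 1 was called lower (Rpsa) and 78 were not called. The called genes made up 9.30% of the family, where 18.6% of all genes tested were called. By direction, 8.14% of the family was called higher, against 6.99% of all genes, and 1.16% was called lower, against 11.6% of all genes. The groups did not overlap for 31 of the 86 genes, a share of 36.0%, where the share was 27.7% over all genes.

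The differences were small in both directions. They ranged from -0.48 to 0.68, with 42 genes above 0 and 44 below. The family's median was -0.00 and the median of all genes -0.09, so relative to all genes the family lay 0.08 higher, but 0.10 lower after quantile normalization and in the series matrix values. Of the 86 genes 84 differed by less than 0.5, or 97.7%, where 76.0% of all genes did. None reached a difference of 1, which 6.37% of all genes did.

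The family also varied little within a group. The median within-group SD was 0.092 for ribosomal protein genes and 0.217 for all genes. The family is bright, with a median level between 9.13 and 9.33 on an array. Neither the SDs nor the sizes of the differences were compared with genes of like level. Of the 78 genes not called, 71 had a 95% interval that lay within a 1.5-fold change in either direction. At an unadjusted p under 0.05 there were 25 genes, or 29.1%, where 5013 of all genes tested, or 36%, passed it. With a variance trend in the fit 7 genes were called higher and 6 lower, or 15.1% of the family and 19.4% of all genes.

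**Figure D1:**
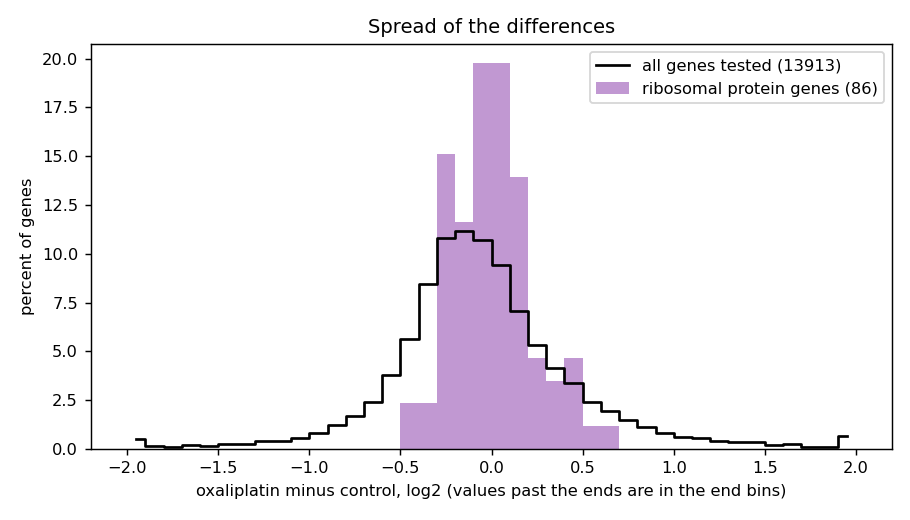
Share of genes (percent, vertical axis) by log2 difference, oxaliplatin minus control (horizontal axis, bins of 0.1), for the 86 ribosomal protein genes (filled) and all 13913 genes tested (line). The ribosomal protein genes lie between -0.48 and 0.68, while 6.37% of all genes differ by at least 1.

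Both subunits held called genes. The split is by symbol alone, so Rps19bp1, the paralogues and the retrogene-like copies are counted in it. Of 52 Rpl symbols 3 were called higher and 0 lower, with a median difference of 0.02. Of 34 Rps symbols 4 were called higher and 1 lower, with a median of -0.06. Over all genes tested, 6.99% were called higher and 11.6% lower. The difference between the subunits was not tested.

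**Figure D2:**
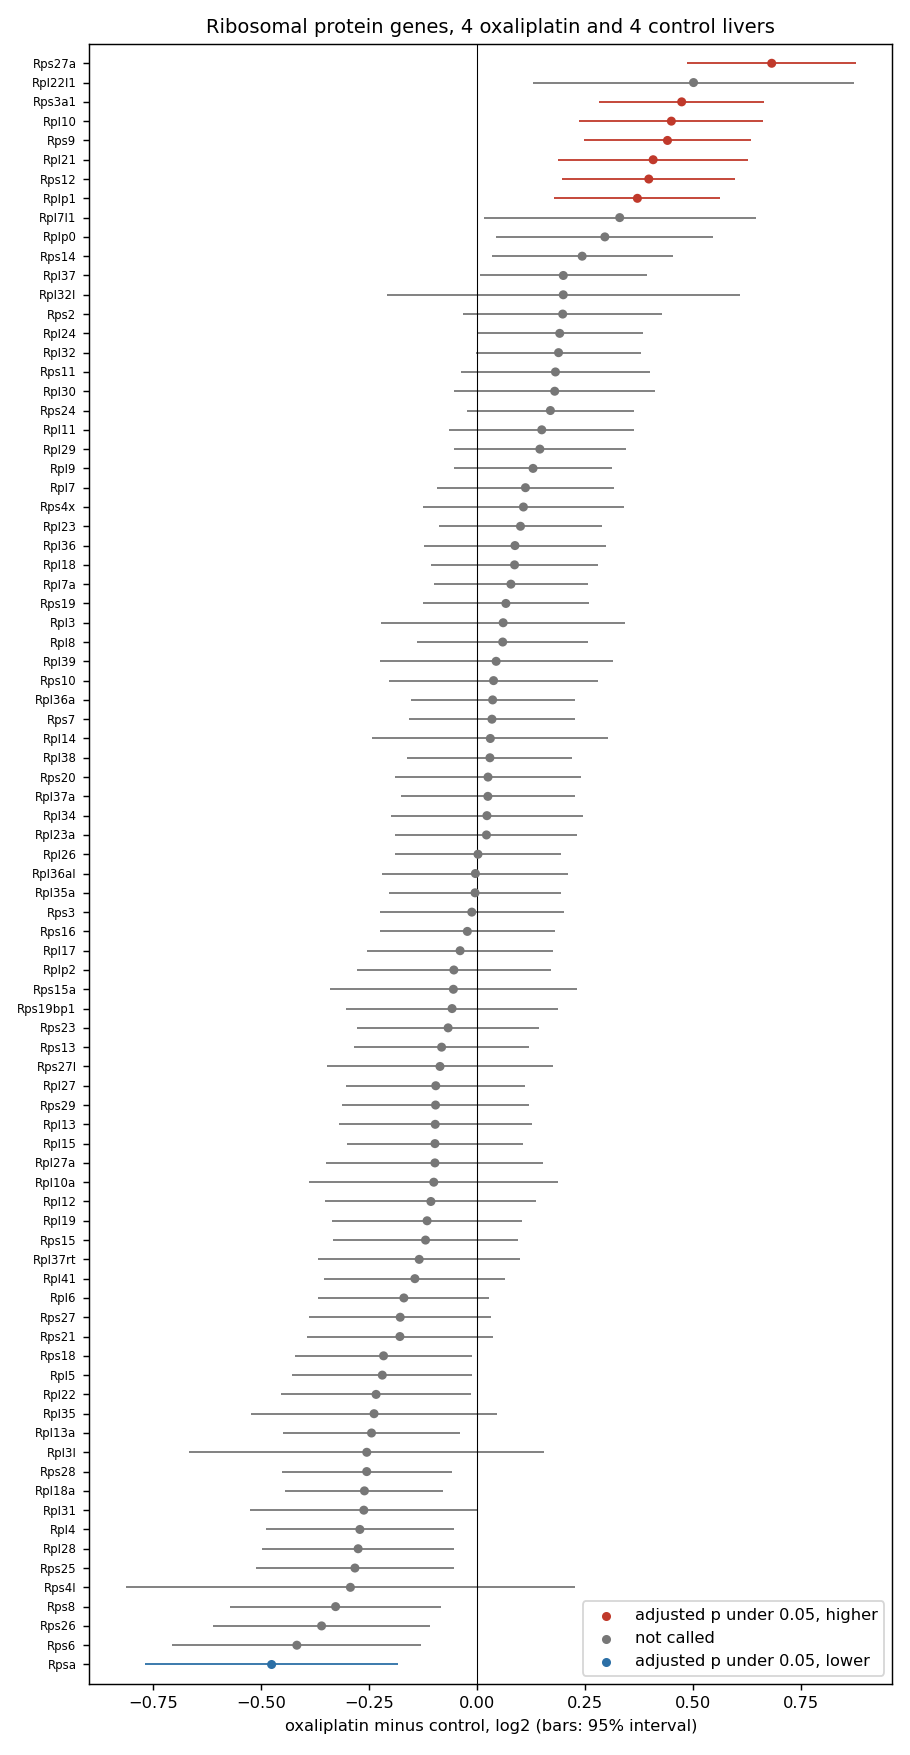
Log2 difference, oxaliplatin minus control (horizontal axis), of 84 of the 86 tested ribosomal protein genes, sorted from the highest at the top, with 95% intervals as bars. Red marks the 7 genes called higher, blue the 1 called lower (Rpsa) and grey the 76 others shown, which were not called.

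Rps27a is made as a fusion of ubiquitin with a small-subunit protein and so supplies both the ribosome and the ubiquitin pool. Its levels were 8.79, 8.79, 8.71 and 8.72 on oxaliplatin arrays and 8.13, 7.95, 8.13 and 8.06 on control arrays. Every oxaliplatin array was above every control array, and the values within a group lay close together. The difference was 0.68 ± 0.09 (adjusted p = 0.00375), a fold of 1.61. Its other probe, which also holds the hexamer, gave 0.68 ± 0.11. Rps27a and Rps12 were the only 2 of 81 genes with more than 1 tested probe for which every probe was called in one direction. Neither gene has a tested probe without the hexamer.

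Rps12, a small-subunit protein, had levels of 9.93, 10.14, 10.01 and 10.09 on oxaliplatin arrays and 9.70, 9.68, 9.60 and 9.60 on control arrays. The oxaliplatin arrays again lay above all control arrays. The difference was 0.40 ± 0.09 (adjusted p = 0.0204), and the second probe, which also holds the hexamer, gave 0.84 ± 0.11.

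Rplp1 and Rplp2 form the flexible stalk of the large subunit that recruits elongation factors, and Rplp0 anchors them. Rplp1 had levels of 10.85, 10.77, 10.77 and 10.94 on oxaliplatin arrays and 10.46, 10.46, 10.50 and 10.42 on control arrays, without overlap. It rose by 0.37 ± 0.08 (adjusted p = 0.0221), with a like value of 0.38 ± 0.13 at its second probe. Both of these Rplp1 probes hold the hexamer. Rplp0 differed by 0.30 ± 0.11 (adjusted p = 0.0910) and Rplp2 by -0.05 ± 0.10 (adjusted p = 0.733), and neither was called. That Rplp0 probe holds the hexamer. The other Rplp0 probes lack it and gave the opposite sign, at -0.23 ± 0.11 and -0.62 ± 0.18. The last, a much dimmer probe, was called lower among all probes (adjusted p = 0.0473).

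The other 4 genes called higher had probes that disagreed. Rps9, a small-subunit protein, had levels of 9.37, 9.34, 9.30 and 9.33 on oxaliplatin arrays and 9.01, 8.87, 8.87 and 8.82 on control arrays at the probe with the hexamer. There it was 0.44 ± 0.08 higher (adjusted p = 0.0136). At the probe printed whole, levels were 7.74, 7.90, 7.73 and 7.91 on oxaliplatin arrays and 7.93, 8.10, 8.15 and 8.55 on control arrays. The direction there is the opposite, without overlap, at -0.36 ± 0.14, and that probe was not called among all probes (adjusted p = 0.113).

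Rpl10, which sits by the catalytic centre of the large subunit, had levels of 10.22, 10.06, 10.14 and 10.20 on oxaliplatin arrays and 9.78, 9.76, 9.73 and 9.55 on control arrays at the probe with the hexamer. The groups did not overlap, and the difference was 0.45 ± 0.09 (adjusted p = 0.0171). Its printed whole probe gave -0.18 ± 0.12 (adjusted p = 0.311 over all probes).

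Rps3a1, a small-subunit protein, had levels of 9.40, 9.40, 9.39 and 9.36 on oxaliplatin arrays and 8.85, 9.01, 8.95 and 8.84 on control arrays. The difference was 0.47 ± 0.08 (adjusted p = 0.0104) without overlap, and it was the only gene called higher whose brightest probe lacks the hexamer. Its 2 other probes gave -0.35 ± 0.12 and 0.58 ± 0.24. At the first, levels were between 8.57 and 8.75 on oxaliplatin arrays and between 8.85 and 9.30 on control arrays, without overlap. It was not called among all probes (adjusted p = 0.084). On average it was brighter than the probe read on control arrays (9.02 against 8.91) and dimmer on oxaliplatin arrays (8.67 against 9.39). Rpl21, a large-subunit protein, was 0.41 ± 0.10 higher (adjusted p = 0.0253), with levels between 9.37 and 9.50 on oxaliplatin arrays and between 8.92 and 9.21 on control arrays. Its 2 dimmer probes gave 0.23 ± 0.11 and -0.29 ± 0.11.

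Rpsa, the small-subunit protein first described as a laminin receptor, was the only gene called lower. Its levels were 6.32, 6.53, 6.61 and 6.64 on oxaliplatin arrays and 6.92, 6.79, 7.02 and 7.26 on control arrays. All oxaliplatin arrays lay below all control arrays, and it fell by 0.48 ± 0.13 (adjusted p = 0.0371). The probe lies at chr9:120037589-120037648 (mm9), and a much dimmer second probe gave 0.25 ± 0.13.

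**Figure D3:**
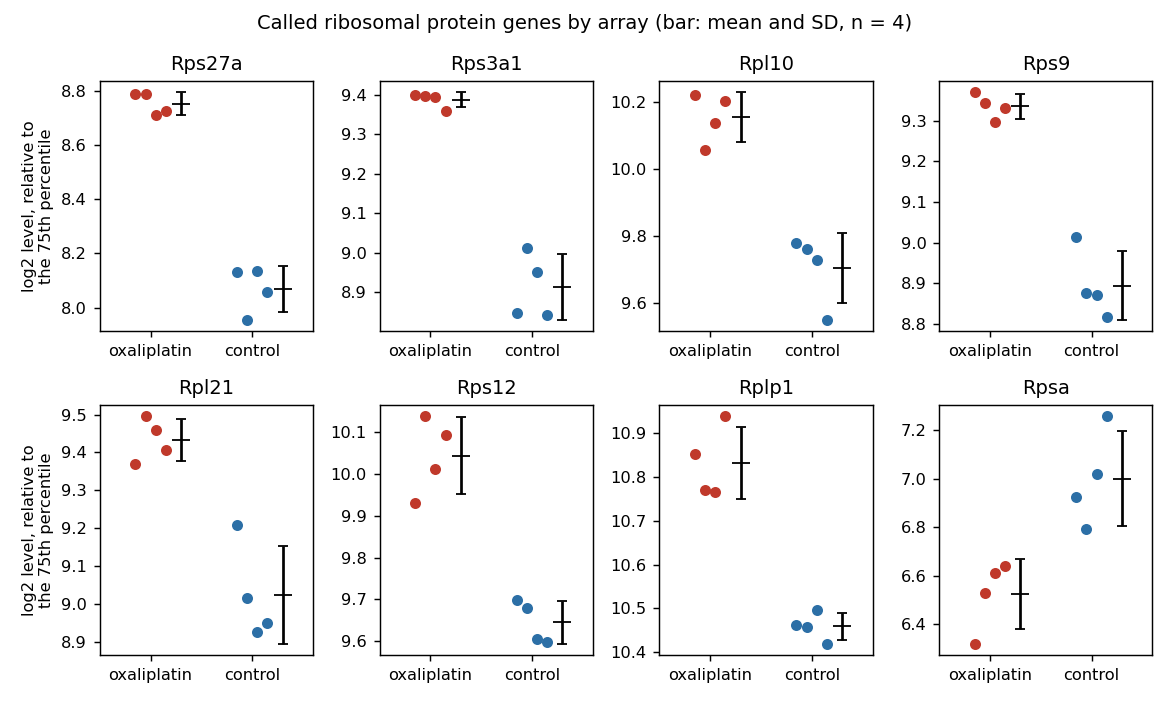
Log2 level relative to the 75th percentile of the array (vertical axis) for the 8 called genes, with 1 point per array, oxaliplatin at the left and control at the right of each panel, and the mean and SD (n = 4) as a bar. The groups do not overlap in any panel, and Rpsa is the gene that is lower on oxaliplatin arrays.

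Which way a gene pointed went with which of its probes was read. Of 200 tested probes of the family, 17 were called higher and 9 lower, or 13% in all. Of all 54636 tested probes 18.4% were called, 7.42% higher and 11.0% lower. Of 81 genes with more than 1 tested probe, 48 had probes of both signs, and in 18 the probes spanned more than 0.5. Rps21, a small-subunit protein, spanned most: its brightest probe gave -0.18 ± 0.10, a second 0.48 ± 0.15 and the probe with the hexamer 1.48 ± 0.15. At the last, levels were 5.99, 5.83, 5.77 and 5.93 on oxaliplatin arrays and 4.62, 4.48, 3.99 and 4.53 on control arrays. That probe stood apart on all 4 oxaliplatin arrays, while the brightest was lower on all of them. Rpl7a, a large-subunit protein, had probes from -0.37 ± 0.10 to 0.98 ± 0.16, with 1 called in each direction.

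The hexamer was looked for after these disagreements had been seen, on the strand of the mRNA alone, and what follows is a description with no test. It occurs in 55 of the 200 probes, or 27.5%, and in 14.6% of all 29523 tested probes with a gene name. The median difference of the family's probes was 0.11 with the hexamer and -0.10 without it. Among those with it 10 were called higher and 1 lower, and among those without it 7 were called higher and 8 lower. As shares these are 18.2% higher and 1.82% lower with it, and 4.83% higher and 5.52% lower without it. Over all named probes the medians were 0.06 with it and -0.12 without it. The shares over all named probes were 12.7% higher and 5.77% lower with it, and 5.19% higher and 11.7% lower without it.

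The same held inside single genes. For 34 ribosomal protein genes with both kinds of probe, the probe or probes with the hexamer gave the higher difference in 27, with a median gap of 0.32. Over all named genes this was so in 2337 of 3135, with a median gap of 0.16, so the pattern is not particular to this family. By array, the family's median gap relative to the mean of the 8 arrays was between 0.13 and 0.17 on oxaliplatin arrays and between -0.24 and -0.07 on control arrays. The groups did not overlap in it. Of the 7 genes called higher 6 were read at a probe with the hexamer, as were 32 of the 86 tested.

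**Figure D4:**
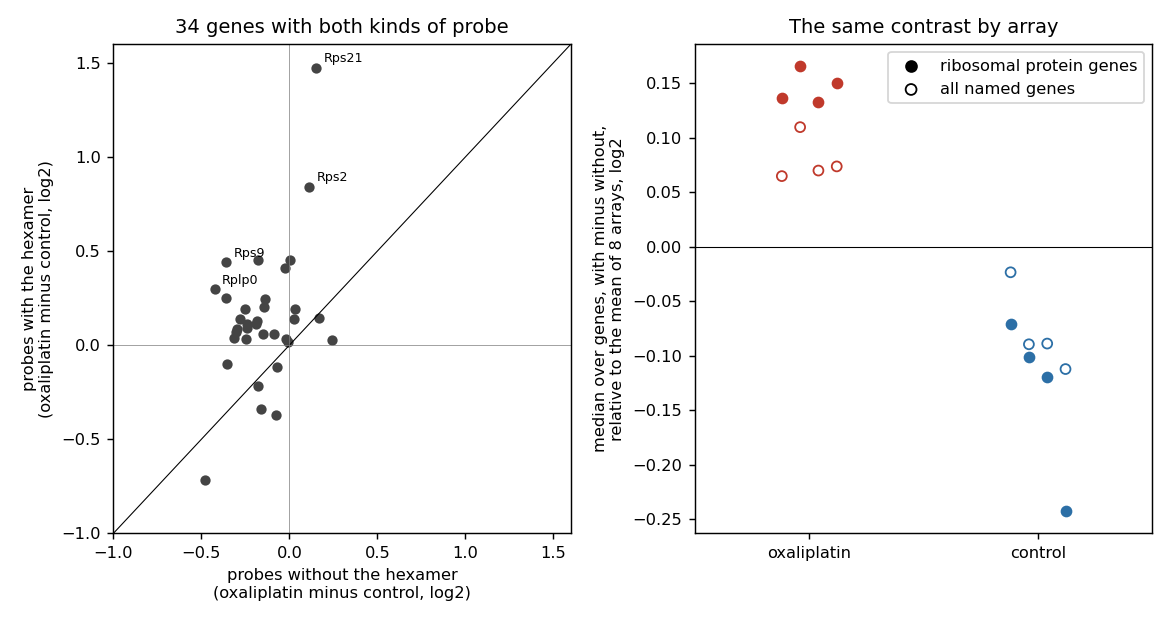
Left, log2 difference (oxaliplatin minus control) of the probes with the polyadenylation hexamer (vertical axis) against that of probes without it (horizontal axis) in 34 ribosomal protein genes, where 27 points lie above the diagonal. Right, the median gap between both kinds of probe on each array relative to the mean of the 8 arrays (log2), oxaliplatin left and control right, for ribosomal protein genes (filled) and all named genes (open).

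Base composition differed between the kinds of probe. Probes with it had a median GC content of 38.3%, and the family's probes without it 45%. Within the family's probes under 40% GC, the median was 0.19 for 29 with the hexamer and 0.04 for 30 without it. Between 40% and 50% GC it was 0.06 for 25 with it and -0.10 for 74 without it. For 27 genes with catalogue probes at least 60 bases apart on 1 transcript, the downstream probe gave the higher difference in 19, with a median gap of 0.16. Over all named genes 56.3% of 3797 did so, with a median gap of 0.05. The part that RNA integrity, labelling or a change in mRNA ends has in this was not tested.

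Read only at probes without the hexamer, 76 genes could be tested, 1 was called higher (Rps3a1) and 2 lower, Rpsa among them. This is 3.95% of the family, where 18.3% of all genes were called on such probes. Read only at probes with it, 44 genes could be tested, and 8 were called higher and 1 lower. This is 20.5% of the family and close to the 19.4% of all genes called on such probes. The 8 included Rps21 and Rps2, and the 1 was Rpl22.

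Rpl22 and its paralogue Rpl22l1 both bind RNA and can take each other's place in the large subunit, and in mice loss of Rpl22 is known to raise Rpl22l1. The whole Rpl22 probe and 30 bases of the Rpl22l1 probe are shown because neither holds the hexamer.
Rpl22: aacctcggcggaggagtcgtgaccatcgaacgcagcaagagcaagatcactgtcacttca
Rpl22l1: gaacttcgttatttccagattagtcaagat

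Rpl22l1 had levels of 7.65, 7.89, 7.97 and 8.22 on oxaliplatin arrays and 7.30, 7.34, 7.28 and 7.80 on control arrays (chr3:28706197-28706256). Control replicate 4 stood above the other controls and above oxaliplatin replicate 1. The difference was 0.50 ± 0.16 and was not called (adjusted p = 0.0634). Its second probe gave 0.84 ± 0.16 and was called among all probes (adjusted p = 0.0131).

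Rpl22 had levels of 7.51, 7.64, 7.62 and 7.58 on oxaliplatin arrays and 7.73, 7.74, 7.83 and 8.001 on control arrays (chr4:151704158-151704217). The oxaliplatin arrays lay below all controls, but at -0.23 ± 0.10 the gene was not called (adjusted p = 0.119). Its 2 dimmer probes gave -0.72 ± 0.12 and -0.73 ± 0.12, and both were called among all probes. One of these has the hexamer and the other lacks it.

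The log2 signal of Rpl22l1 minus that of Rpl22 was 0.34 ± 0.21 on oxaliplatin arrays and -0.39 ± 0.14 on control arrays (SD, n = 4). It did not overlap between the groups, and the same was true for all 6 combinations of their probes, with shifts from 0.74 to 1.58. For the brightest probes the two-sided exact permutation p was 0.0286, the smallest that 4 against 4 arrays allow, and 0.1 after adjustment over the 7 pairs of paralogue and parent compared. Among these pairs Rpl37rt against Rpl37 shifted by -0.33 with the same p and adjusted p, and there the Rpl37 probe holds the hexamer while the Rpl37rt probe does not. The remaining 5 pairs overlapped between the groups. Of them, Rps27l against Rps27 shifted by 0.09 (exact p = 0.486), and the Rps27 probe is placed by the files on chromosome 9, where the gene itself is on chromosome 3.

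**Figure D5:**
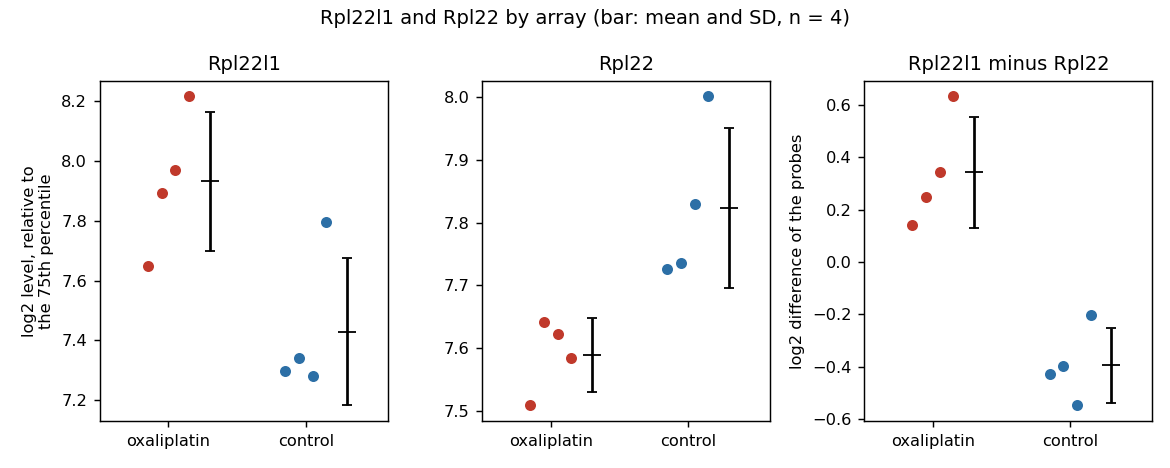
Log2 level (vertical axis) of Rpl22l1 and Rpl22 and the difference of both probes on each array, oxaliplatin left and control right, with the mean and SD (n = 4) as a bar. The difference lies at 0.34 on average on oxaliplatin arrays and at -0.39 on control arrays, and the groups do not overlap.

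Read at its brightest probe, no tested paralogue was called. Rpl7l1 differed by 0.33 ± 0.14, Rps4l by -0.29 ± 0.23, Rpl36al by -0.00 ± 0.09 and Rps27l, a p53 target in human and mouse cells, by -0.09 ± 0.11. Rpl3l, a muscle form of Rpl3, was above background on 2 oxaliplatin and 4 control arrays and differed by -0.26 ± 0.18. Rpl10l and Rpl39l, testis forms of Rpl10 and Rpl39, were not well above background on any array. The untested Rps23rg1 was above background on 2 oxaliplatin arrays and 1 control array.

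The genes tied to p53 through Mdm2 were not called. Rpl5 differed by -0.22 ± 0.09 (adjusted p = 0.123), with all oxaliplatin arrays below all control arrays, and its partner in the 5S particle Rpl11 by 0.15 ± 0.09 (adjusted p = 0.279). The Rpl11 probes hold the hexamer, and those of Rpl5 do not. Rpl23 and Rpl26, which also bind Mdm2 or p53 mRNA, differed by 0.10 ± 0.08 and 0.00 ± 0.08 at their brightest probes. The dimmer Rpl23 probes gave -0.37 ± 0.14 and -0.26 ± 0.10, and the other Rpl26 probe gave -0.27 ± 0.10. None of these was called among all probes.

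Rps6, the substrate of the S6 kinases downstream of mTORC1, lay just outside the threshold. Its levels were 6.99, 7.08, 7.08 and 7.09 on oxaliplatin arrays and 7.43, 7.29, 7.36 and 7.81 on control arrays. The groups did not overlap, and the difference was -0.42 ± 0.13 (adjusted p = 0.0525).

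Of 7 genes mutated in Diamond-Blackfan anaemia, a human failure of red cell production, none was called at its brightest probe. Rps26 came closest, at -0.36 ± 0.11 (adjusted p = 0.0542), but its other probe, with the hexamer, gave 0.25 ± 0.15. Others were Rps24 at 0.17 ± 0.09, Rps19 at 0.07 ± 0.08, Rps10 at 0.04 ± 0.11, Rps7 at 0.03 ± 0.08 and Rpl35a at -0.00 ± 0.09. Their other probes gave 0.01 ± 0.10 for Rps24, -0.31 ± 0.10 for Rps19, -0.32 ± 0.11 for Rps10 and 0.24 ± 0.12 for Rpl35a. The other Rps7 probe, a dim one, gave -0.39 ± 0.10 and was called lower among all probes (adjusted p = 0.0279). Beside these genes, 4 of 8 tested erythroid markers were called higher and 1 lower, a called share of 62.5% where that of all genes was 18.6%. The summed linear signal of that list was between 2929 and 5825 on oxaliplatin arrays and between 707 and 3643 on control arrays. Epb42, a red cell membrane gene, was not well above background on any array. The list's part in these values was not tested.

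RefSeq start windows (GRCm38.p6) from 250 bases before to 50 bases after the annotated start were matched for 65 of the 86 genes, in 77 windows. The letters CCGGAAG, on either strand, stood in 33.8% of these windows and in 8.86% of all 32851 windows. A TOP-like run, a C and 4 further C or T, began within 5 bases of the annotated start in 41.6% of them and in 18.3% of all windows. TATAAA on either strand stood in 10.4%, against 13.6% of all.

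Genes that work with the ribosome were mixed in direction. Of 18 elongation factors and other TOP mRNAs 2 were called higher and 5 lower, with a median difference of -0.13, a called share of 38.9% where that of all genes was 18.6%. The initiation factor subunits Eif3f and Eif3h fell by 0.60 ± 0.12 and 0.46 ± 0.09, and the nucleolar chaperone Npm1 fell by 0.39 ± 0.09 (adjusted p = 0.0206).

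Of 32 ribosome assembly factors 2 were called higher and 2 lower, with a median of -0.21. The called share was 12.5%, below the 18.6% of all genes. Rrp9, which binds the U3 RNA, rose by 0.46 ± 0.10, while the small-subunit processome proteins Utp4 and Wdr43 fell by 0.44 ± 0.10 and 0.53 ± 0.14. Rrp9 was called at its brightest probe but stood at -0.14 as a mean over its probes, and at -0.17 with arrays centred on their median.

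Of 14 RNA polymerase I genes 0 were called higher and 2 lower, with a median of -0.26. The called share was 14.3%, also below that of all genes. Ubtf, which activates rRNA gene transcription, fell by 0.39 ± 0.09, and Taf1b, a subunit of the promoter selectivity factor, fell by 0.61 ± 0.18. Polr1a, the largest polymerase subunit, was at -0.46 ± 0.14 and not called (adjusted p = 0.0528).

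Of 17 genes of mTORC1 and TOP mRNA control 2 were called higher and 4 lower, with a median of 0.01 and a called share of 35.3%. Mtor, the kinase itself, rose by 0.50 ± 0.11, but stood at -0.13 with arrays centred on their median. Myc, an activator of ribosome genes, fell by 1.19 ± 0.26, and the cap-binding protein Eif4e fell by 0.55 ± 0.13 (adjusted p = 0.0253).

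The counts depended on the scaling. With normexp background correction 5 ribosomal protein genes were called higher and 13 lower, and after quantile normalization 3 higher and 6 lower. With normexp this is 20.9% of the family, where 23.1% of all genes were called, 680 higher and 2533 lower. With quantile normalization it is 10.5% of the family and 16.1% of all genes. The higher share of the calls was 87.5% as reported, 27.8% with normexp, 33.3% with quantile normalization and 30% in the series matrix values. With the 75th percentile taken over probes detected on all 8 arrays 12 were called higher and 0 lower, or 14.0% of the family, where 17.0% of all genes were called. With arrays centred on their median 0 were called higher and 75 lower, or 87.2% of the family and 71.3% of all genes, where the median of all genes was at -0.72 and that of the family at -0.63.

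The files give oxaliplatin replicates 1 and 2 a run name that differs from that of the remaining 6 arrays. Among these 6 arrays, oxaliplatin replicates 3 and 4 and the controls, 1 gene was called higher and 0 lower, where 3.70% of all genes were called. With the run name as a covariate 2 were called higher and 0 lower, or 2.33% of the family, where 6.61% of all genes were called. Counts also fell without oxaliplatin replicate 3 alone, to 3 higher and 0 lower, where 7.3% of all genes were called. The part of the run in these counts, beside that of fewer arrays, was not tested. Rps27a kept its call in 21 of 22 alternatives and lost it with arrays centred on their median, at 0.06. Rps27a, Rplp1 and Rps12 have no tested probe without the hexamer, so reading at such probes was not among their alternatives. Some alternatives repeat the reported reading and could hardly remove a call. As no spot was saturated, the brightest unsaturated probe is the probe reported. Genes read at a probe with the hexamer keep that probe when only such probes are read. Rps3a1 and Rpsa keep theirs when only probes without it are read. Rps3a1 kept its call in 18 of 22 and Rps9 in 17 of 23. Among the other genes called higher, Rpl10 kept its call in 13 of 23, Rplp1 in 13 of 22, Rps12 in 12 of 22 and Rpl21 in 10 of 23. Rpsa kept its call in 8 of 22.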

How the data were processed

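Liver RNA of 8 mice was hybridized to Agilent one-colour arrays. The processed signal is an intensity, per the file headers, from which Feature Extraction 12.0.3.1 (build mm9) had removed background and spatial trend within the array. Version 10.7 of that program, and limma, stand in the submitters' processing notes. The deposited mean and background signals are likewise intensity values. The deposited series matrix holds log2 values normalized between arrays by the authors in a way not stated. Their direction and scale follow the scanner values, with r between 0.9964 and 0.9998 across probes, and their centring is unknown.

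The log2 processed signal minus each array's 75th percentile over non-control probes was used, with outlier spots left out. Probes well above background on at least 4 of 8 arrays were kept, named through RefSeq accessions (GRCm38.p6, 47985 of 48257 matched, 145 named by the file), and the brightest probe stood for a gene. Groups were compared with R 4.3.3 and limma 3.58.1, with 6 residual and 2.37 prior degrees of freedom. The fit was tested on simulated data. Single values were compared by exact permutation tests.

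Ribosomal protein genes and the accompanying lists were chosen with earlier results of these data known. Every called ribosomal protein gene is named, with genes of fixed roles and, of each accompanying list, the 3 members with the smallest adjusted p. Rps2, Rps21, Rpl7a and Rpl37 were added after their values were seen. Rps27rt and Rps3a2 were not found by name. Some named genes and 1 probe sequence are not reported here. Whether probes also bind the transcripts of ribosomal protein pseudogenes, of which the reference table lists 309 under such symbols, was not tested. The number of arrays limits the precision. Figures used Python 3.11.15 and matplotlib 3.10.9.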

Additional observations from a re-analysis of the deposited data

Results flagged for a closer look

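A sample far from the others of its group was looked for in 98 groups of 4 arrays, and 9 were found, where chance alone gives about 1 in 20. The measure is the gap to the nearest array over the range of the group. On oxaliplatin replicate 2, Eif3f was at 5.74 with the other 3 arrays between 5.626 and 5.633 (0.938), and Npm1 at 7.75 with the others between 7.68 and 7.69 (0.857). On oxaliplatin replicate 1, Polr1a was at 3.88 with the others between 3.71 and 3.73 (0.912), and Rps6 at 6.99 with the others between 7.076 and 7.085 (0.909). On oxaliplatin replicate 4, Rps3a1 was at 9.36 with the others between 9.39 and 9.40 (0.895). On control replicate 4, Rpl22l1 was at 7.80 with the others between 7.28 and 7.34 (0.886), and Rpl3 at 9.30 with the others between 8.88 and 8.90 (0.945). On control replicate 3, Rpl37rt stood apart at 10.26 (0.897). On control replicate 1, Rpl7l1 was at 2.62 with the others between 3.08 and 3.14 (0.887).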

How the results depend on the processing

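For ribosomal protein genes, counts are given as higher and lower, then the family's median where it moved. They were 5 and 13 with normexp (-0.078), 3 and 6 with quantile normalization (-0.12), 0 and 75 with arrays centred on their median (-0.63), 12 and 0 with the percentile over detected probes (0.11), and 3 and 7 in the series matrix (-0.12). They were 7 and 4 with all 8 arrays above background, 7 and 6 with a variance trend, 7 and 2 with the mean over probes, 1 and 0 on the 6 arrays of one run, and 2 and 0 with the run as covariate. Chosen after seeing the data, probes without the hexamer gave 1 and 2 (-0.10) and probes with it a median of 0.11. The replicate numbers did not pair the samples (correlations from -0.32 to -0.08); with the replicate block 1 and 0 ribosomal protein genes and 0 and 0 genes of the other lists were called. Leaving out 1 array gave between 3 and 8 higher, 0 and 2 lower, and medians from -0.03 to 0.03. The 3 came without oxaliplatin replicate 3, and 4 without oxaliplatin replicate 4 or control replicate 3.

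The 4 accompanying lists had 6 genes higher and 13 lower as reported. These became 2 and 23 with normexp, 0 and 71 with median centring, 3 higher without a filter, 1 and 8 with the mean over probes, 2 and 1 with hexamer probes, 6 lower with the percentile over detected probes and 8 lower in the series matrix. Both were 0 on 1 run and with the run as covariate. Leaving out 1 array gave between 0 and 5 higher, and 0 and 16 lower.

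Median centring turned the sign of Mtor (-0.13), Rpl10 (-0.18), Rpl11 (-0.48), Rpl21 (-0.22), Rpl23 (-0.53), Rpl26 (-0.62), Rpl3 (-0.57), Rpl36a (-0.59), Rpl39 (-0.58), Rpl7 (-0.51), Rplp1 (-0.26), Rps10 (-0.59), Rps12 (-0.23), Rps19 (-0.56), Rps24 (-0.46), Rps3a1 (-0.15), Rps4x (-0.52), Rps7 (-0.59), Rps9 (-0.19) and Rrp9 (-0.17). Probes without the hexamer turned Rpl10 (-0.18) and Rps9 (-0.36), and the mean over probes turned Rrp9 (-0.14). In 78 further cases a gene not called either way changed sign. The cause of these changes was not tested.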
